A study of Mus musculus with 8 samples.

Results

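The transcripts of 10 immune checkpoint and costimulatory ligands were followed in mouse mammary epithelial cultures with and without interferon-α. The genes were Cd274, Pdcd1lg2, Cd80, Cd86, Icosl, Cd276, Vtcn1, Cd47, Lgals9 and Pvr, taken by gene symbol from the probe annotation. All 10 were measured, by 15 of the 55681 probes on the array, and they are 10 of the 21794 genes tested. The mice were FVB/N-J virgins of wild type, so no group carried an engineered allele, and 4 groups of 2 samples each were compared. MaSC-enriched cells (mammary stem cells, of the basal layer) with IFNα were set against MaSC control cultures. Luminal progenitor (LP) enriched cells with IFNα were set against LP control cultures. Cultures were mammospheres harvested after 8 days, and IFNα was given at 1000 U/ml. The populations were sorted by surface markers, and the sample titles give both the same CD24 and CD29 profile, so groups follow the subpopulation field. Whether replicates were separate animals or cultures is not stated, and the tests therefore reflect the spread among these 8 samples alone.

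These ligands sit on the cell surface, or in the case of galectin-9 are also secreted, and set how strongly T cells, natural killer cells and macrophages respond to the cell that carries them. Proteins of the B7 family bind CD28 family receptors on T cells: CD80 and CD86 provide costimulation through CD28, whereas PD-L1 and PD-L2 restrain T cells through PD-1. Type I interferon acts through the receptor chains IFNAR1 and IFNAR2 and transcription factors that include STAT2 and IRF9, and PD-L1 is a known interferon-inducible ligand in many epithelial and tumour cells.

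Values are log2 ratios against a reference RNA pool labelled on the same array, so 0 means equal signal in both, and levels of different genes or probes cannot be set against each other. LP control replicate 1 stood apart. The standard deviation of its values over all probes was 0.63, against 1.19 to 1.26 on the other 7 arrays, and its ligand values lay closer to 0, with a mean absolute log2 ratio over the 10 genes of 0.66 against 1.31 to 1.79 elsewhere. Changes of the ligand genes in LP are therefore also given without it, while those of single probes and of the gene lists are not. All 8 interferon-stimulated genes of a reference list (Isg15, Irf7, Ifit1, Ifit3, Mx1, Oasl2, Rsad2 and Bst2) were higher on each array with IFNα than on any control array and rose in the average of both responses. Among all genes 1.48% were higher on each such array and 0.587% rose. Of 10 basal markers 8 had a positive difference (MaSC minus LP) over both treatments, and 1 of the 10 was lower in MaSC without overlap. Krt5, Krt14, Trp63 and Acta2, 4 of 10, were higher in MaSC by the limma test, where 2.34% of all genes were. None of 8 luminal progenitor markers passed in that comparison, with Cd14 at -1.99 (MaSC minus LP, adjusted p = 0.10) and Krt8 at -0.88 (adjusted p = 0.16). The luminal list was mixed: 3 of the 8 had a positive difference over both treatments, and 4 of 8 had one in controls.

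Lgals9, which encodes galectin-9, a sugar-binding protein that engages TIM-3, an inhibitory receptor on T cells, rose with IFNα in both populations. Its log2 ratio was 1.97 and 1.81 in the MaSC cultures with IFNα, against -1.21 and -1.10 in the MaSC controls. In LP it was 2.34 and 2.77 with IFNα, against -0.25 and -0.02 in the controls. Every array with IFNα lay well above every control array, and the gap was far wider than the distance between replicates. The log2 change was 3.05 ± 0.22 in MaSC (standard error, 2 samples against 2, limma adjusted p = 0.012), which is 8.28-fold, and 2.69 ± 0.22 in LP (adjusted p = 0.017), which is 6.47-fold. Averaged over both populations it was 2.87 ± 0.15 (adjusted p = 0.0021). In bulk RNA, more cells that carry a transcript and more transcript per cell cannot be told apart. The averaged call held without any 1 of the 8 arrays (adjusted p = 0.0067 to 0.028). With single arrays left out most calls within a population were lost, although the change moved little. It ran from 2.97 to 3.13 in MaSC and from 2.48 to 2.91 in LP. The call in MaSC held only without LP control replicate 1 or 2 and was lost without any other array. With a replicate block it stood at a limma adjusted p of 0.051. The call in LP held only without LP control replicate 2 and was lost without any other array, with a change of 2.58 without LP control replicate 1. Fitted on only the groups compared, neither passed (adjusted p = 0.096 in MaSC and 0.28 in LP).

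**Figure D1:**
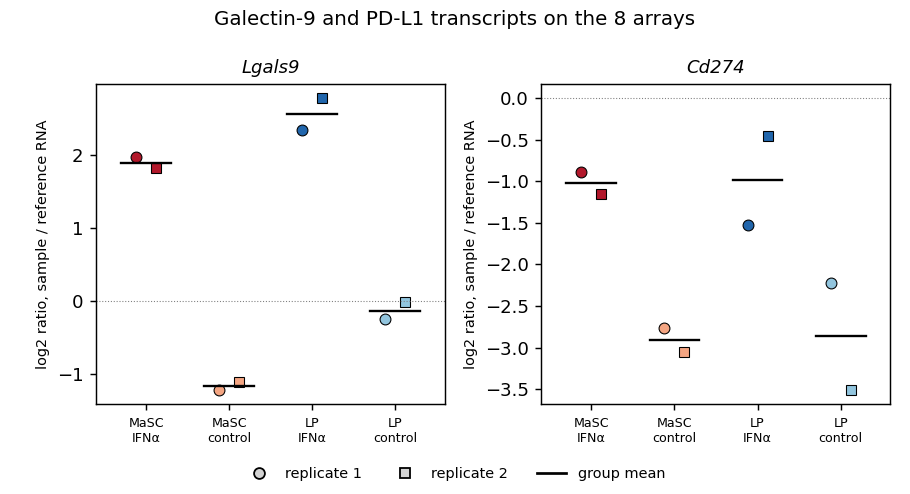
Log2 ratio to reference RNA (vertical axis) of Lgals9 and Cd274 on each array, by group. Circles are replicate 1, squares replicate 2 and bars group means. Lgals9 lies between 1.81 and 2.77 on the 4 arrays with IFNα and between -1.21 and -0.02 on the 4 control arrays, and Cd274 between -1.52 and -0.46 against -3.51 and -2.22.

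The 4 groups followed an order for Lgals9, from the highest: LP with IFNα, MaSC with IFNα, LP control and MaSC control, and no group overlapped its neighbour. The neighbours of the same treatment did not differ past the threshold, at -0.67 (MaSC minus LP, adjusted p = 0.23) with IFNα and -1.02 (adjusted p = 0.15) in controls. The step between MaSC with IFNα and LP control was not tested. Lgals9 stood at rank 55 in MaSC and 85 in LP when the 21794 genes were ordered from the largest rise down.

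Cd274 encodes PD-L1, the main ligand of the inhibitory receptor PD-1, and its values were higher with IFNα on every array without passing the test. The log2 ratio was -0.88 and -1.16 in MaSC with IFNα, against -2.76 and -3.06 in MaSC controls. In LP it was -1.52 and -0.46 with IFNα, against -2.22 and -3.51 in controls. The groups did not overlap in either population, while replicates of LP lay more than 1 log2 unit apart in each treatment. The log2 change was 1.89 in MaSC (95% interval 0.61 to 3.16, limma adjusted p = 0.68) and 1.87 in LP (0.60 to 3.15, adjusted p = 0.47), or 3.70-fold and 3.67-fold. The intervals exclude 0, but they are not corrected for the 21794 genes tested. Averaged over the populations the change was 1.88 ± 0.37 (adjusted p = 0.21). Apart from arrays left out, the averaged change passed under 2 of 6 other settings. It was 2.15 (adjusted p = 0.021) with quantile normalization and 2.26 (adjusted p = 0.029) with every array at the same standard deviation. It did not pass with median centring (adjusted p = 0.27) or the probe of highest mean (0.23). Trend and robust options (0.29) and a replicate block (0.32) did not give a pass either. Without LP control replicate 1 the averaged change was 2.20 (adjusted p = 0.11) and the change in LP 2.52 (adjusted p = 0.31). Without LP control replicate 2 these were 1.56 (adjusted p = 0.13) and 1.23 (adjusted p = 0.34), and without LP IFNα replicate 2 they were 1.62 (adjusted p = 0.47) and 1.34 (adjusted p = 0.84).

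The starts of these genes are shown because Lgals9 and Cd274 were the 2 members higher with IFNα on all arrays, and the windows shown differ in 1 motif. The sequences are RefSeq promoter windows on GRCm38.p6, 250 bases before to 50 after an annotated start, at chr11:78984875-78985174 on the minus strand for Lgals9 and chr19:29367188-29367487 on the plus strand for Cd274. Each is written 5′ to 3′ along its gene. Capitals mark matches to GAAANNGAAA on either strand, the repeated core of sites that interferon regulatory factors bind.
Lgals9: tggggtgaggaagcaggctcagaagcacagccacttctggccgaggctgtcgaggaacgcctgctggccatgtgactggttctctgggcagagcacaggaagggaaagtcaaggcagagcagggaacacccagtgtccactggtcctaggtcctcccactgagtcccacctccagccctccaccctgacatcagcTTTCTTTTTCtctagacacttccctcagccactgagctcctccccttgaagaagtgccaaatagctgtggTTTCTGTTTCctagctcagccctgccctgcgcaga
Cd274: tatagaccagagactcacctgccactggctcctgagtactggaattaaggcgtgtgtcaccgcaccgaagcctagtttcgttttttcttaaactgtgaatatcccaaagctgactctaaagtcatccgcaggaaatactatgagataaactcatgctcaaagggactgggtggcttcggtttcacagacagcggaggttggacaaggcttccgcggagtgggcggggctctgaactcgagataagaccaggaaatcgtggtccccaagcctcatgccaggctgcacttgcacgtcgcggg
The Lgals9 window holds 2 matches, both on the reverse strand, starting at positions -55 and 15 with the annotated start as 0. The Cd274 window holds none. The annotated range of Cd274 begins at chr19:29362107, upstream of this window, and sequence outside the window was not searched. Among all 32851 promoter windows of this length 3.44% hold the motif. None of the other 6 members with a window (Pdcd1lg2, Cd80, Icosl, Cd276, Vtcn1 and Cd47) has a match in it. The palindromic motif TTCNNNGAA, which STAT dimers bind, was searched as well. It is in 8.30% of all windows and in none of these 8 genes' windows.

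Pdcd1lg2, the neighbour of Cd274 on chromosome 19, encodes PD-L2, the second ligand of PD-1, and was not higher on every array with IFNα. The mean of its 2 probes was -0.85 and -1.83 in MaSC with IFNα, against -1.67 and -1.54 in MaSC controls. In LP it was -1.79 and -1.02 with IFNα, against -0.18 and -0.89 in controls. The MaSC groups overlapped and the LP arrays with IFNα lay below both LP controls. The log2 change was 0.27 (95% interval -0.82 to 1.36) in MaSC and -0.87 (-1.96 to 0.22) in LP, where it was -0.52 without LP control replicate 1, and none passed. The probes differed: A_55_P2187141 gave 1.18 in MaSC and -0.84 in LP, and A_55_P2122075 gave -0.64 and -0.91. Their values correlated at r = 0.05 over the 8 arrays, so the mean of this gene joins probes that disagreed.

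**Figure D2:**
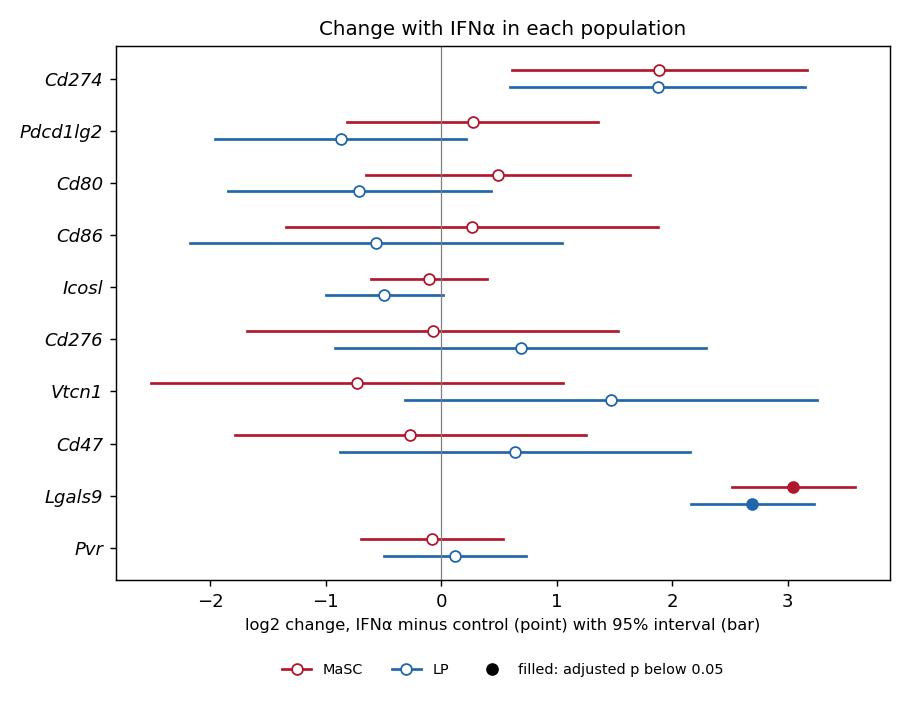
Log2 change with IFNα (horizontal axis, IFNα minus control) of the 10 ligand genes in MaSC (red, upper of each pair) and LP (blue). Points are limma estimates, bars 95% intervals, and filled points passed at an adjusted p below 0.05. Lgals9 is filled in both populations, at 3.05 and 2.69, and Cd274 lies at 1.89 and 1.87.

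Cd80 and Cd86, the costimulatory ligands of CD28 that the inhibitory receptor CTLA-4 also binds, did not pass in any IFNα comparison. Cd86 was far below the reference on every array, at -4.37 and -4.43 in MaSC with IFNα against -4.76 and -4.56 in MaSC controls. In LP it was -4.22 and -3.91 with IFNα against -2.41 and -4.59 in controls. The value of -2.41, on LP control replicate 1, was the only one above -3.91. The change in LP was -0.57 (95% interval -2.18 to 1.05) with that array and 0.52 without it, and the change in MaSC was 0.27 (-1.35 to 1.88). Cd80, the mean of 2 probes, was -0.83 and 0.10 in MaSC with IFNα against -1.09 and -0.63 in MaSC controls. It was -1.65 and -1.13 in LP with IFNα against -0.19 and -1.17 in controls. The groups of this mean overlapped in both populations. Its change was 0.49 (-0.65 to 1.64) in MaSC and -0.71 (-1.85 to 0.43) in LP, with -0.22 in LP without LP control replicate 1. The 2 Cd80 probes correlated at r = 0.09 over the 8 arrays. A_55_P2001218 gave 0.19 in MaSC and -0.67 (-1.21 to -0.12) in LP, where its groups did not overlap. A_66_P130432 gave 0.80 and -0.75 (-3.12 to 1.63), and neither probe passed.

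Icosl encodes the ligand of ICOS, a costimulatory receptor of activated T cells, and its 2 probes ran in opposite directions. The mean of these probes was -0.13 and -0.20 in MaSC with IFNα against -0.13 and 0.00 in MaSC controls. In LP it was -0.70 and -0.68 with IFNα against 0.02 and -0.41 in controls. By this mean the arrays with IFNα were lower in both populations, but barely in MaSC, where the nearest arrays read -0.132 and -0.127. The log2 changes were -0.11 (95% interval -0.61 to 0.40) in MaSC and -0.49 ± 0.21 (standard error) in LP, and neither passed. Without LP control replicate 1 the LP change was -0.28. Neither probe fell in both populations: A_51_P520966 gave 0.14 in MaSC and -1.31 in LP, and A_55_P2172106 gave -0.35 and 0.33. Probe A_51_P520966 was at -1.29 and -2.89 in LP with IFNα, while A_55_P2172106 was at -0.11 and 1.53. Over the 8 arrays these probes correlated at r = -0.82.

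The B7 members with an inhibitory role on T cells, Vtcn1 (B7-H4) and Cd276 (B7-H3, for which stimulation has also been described), passed in no IFNα comparison. Vtcn1 was 1.46 and 3.05 in MaSC with IFNα against 3.14 and 2.83 in MaSC controls. It was 2.98 and 2.04 in LP with IFNα against 0.25 and 1.84 in LP controls. The MaSC groups overlapped and the LP groups did not. The change was -0.73 (95% interval -2.52 to 1.05) in MaSC and 1.47 (-0.32 to 3.25, adjusted p = 0.74) in LP, where it was 0.67 without LP control replicate 1. Cd276 was 1.79 and 0.52 in MaSC with IFNα against 1.45 and 1.01 in MaSC controls. It was 1.75 and 1.97 in LP with IFNα against 0.31 and 2.04 in LP controls. Its groups overlapped in both populations, with changes of -0.07 (-1.68 to 1.53) in MaSC and 0.69 (-0.92 to 2.29) in LP. The LP change was -0.18 without LP control replicate 1.

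**Figure D3:**
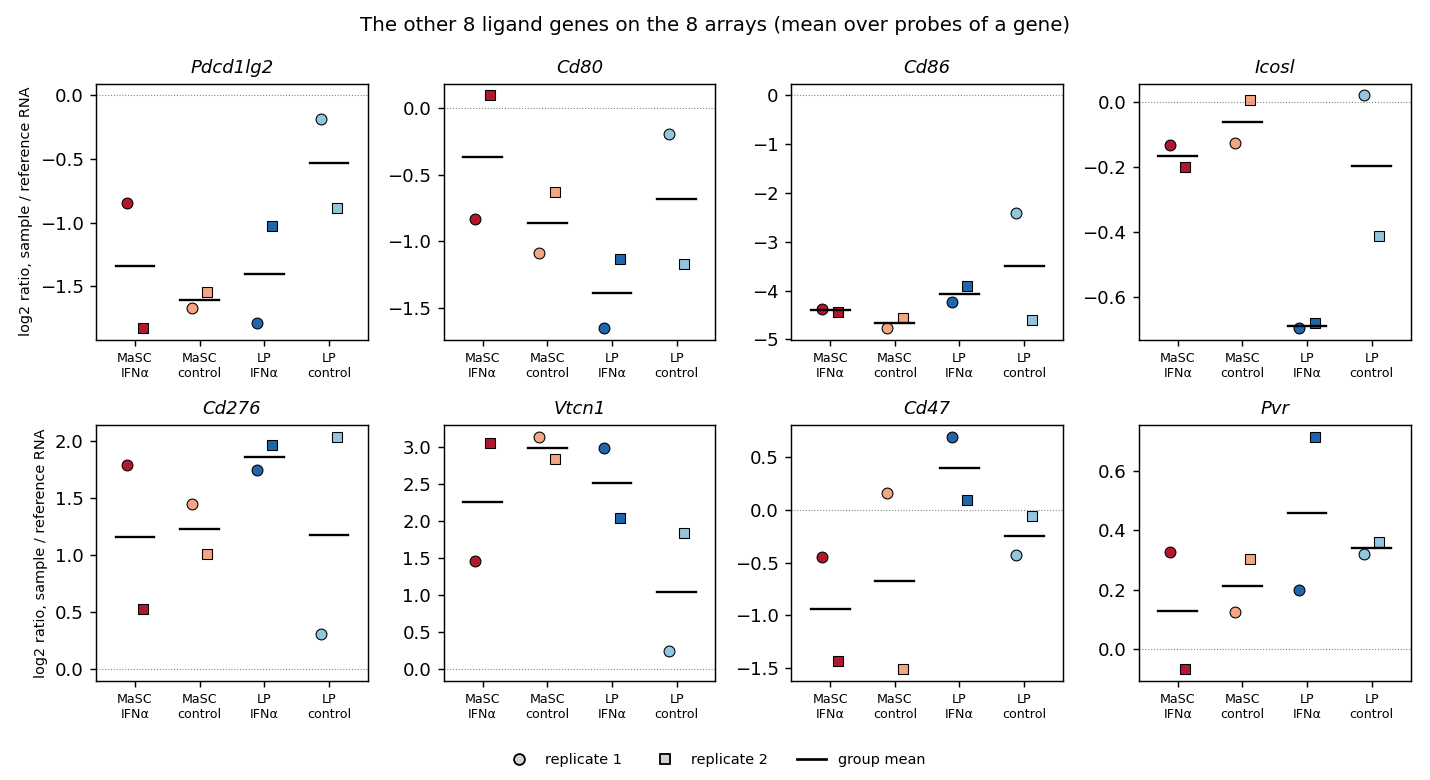
Log2 ratio to reference RNA (vertical axis, a scale of its own in each panel) of the other 8 ligand genes on each array, by group. Circles are replicate 1, squares replicate 2 and bars group means. LP control replicate 1 is the highest value for Cd86, at -2.41, and the lowest for Vtcn1, at 0.25, and Cd276, at 0.31.

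Cd47 encodes the signal that binds SIRPα on macrophages and restrains engulfment, and Pvr encodes CD155, a nectin-like ligand of DNAM-1, TIGIT and CD96. Pvr lay near the reference on every array, at 0.33 and -0.07 in MaSC with IFNα against 0.12 and 0.30 in MaSC controls. In LP it was 0.20 and 0.72 with IFNα against 0.32 and 0.36 in controls. Groups overlapped in both populations, with changes of -0.08 (95% interval -0.70 to 0.53) in MaSC and 0.12 (-0.50 to 0.73) in LP, or 0.10 in LP without LP control replicate 1. Cd47, the mean of 3 probes, had a log2 change of -0.27 (-1.78 to 1.25) in MaSC and 0.64 (-0.87 to 2.16) in LP, or 0.46 in LP without LP control replicate 1. Its probes differed in spread. A_55_P2046822 read 0.46 and -1.42 in MaSC with IFNα against 2.78 and -1.41 in MaSC controls, and 3.02 and 1.52 in LP with IFNα against -0.25 and 1.43 in LP controls. The other probes were steady: A_51_P221014 stood at a log2 change of 0.19 (-0.52 to 0.90) in MaSC and 0.08 in LP, and A_55_P2182483 by 0.18 and 0.16. These 2 probes correlated at r = 0.97 over the 8 arrays, and at 0.55 and 0.65 with A_55_P2046822.

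**Figure D4:**
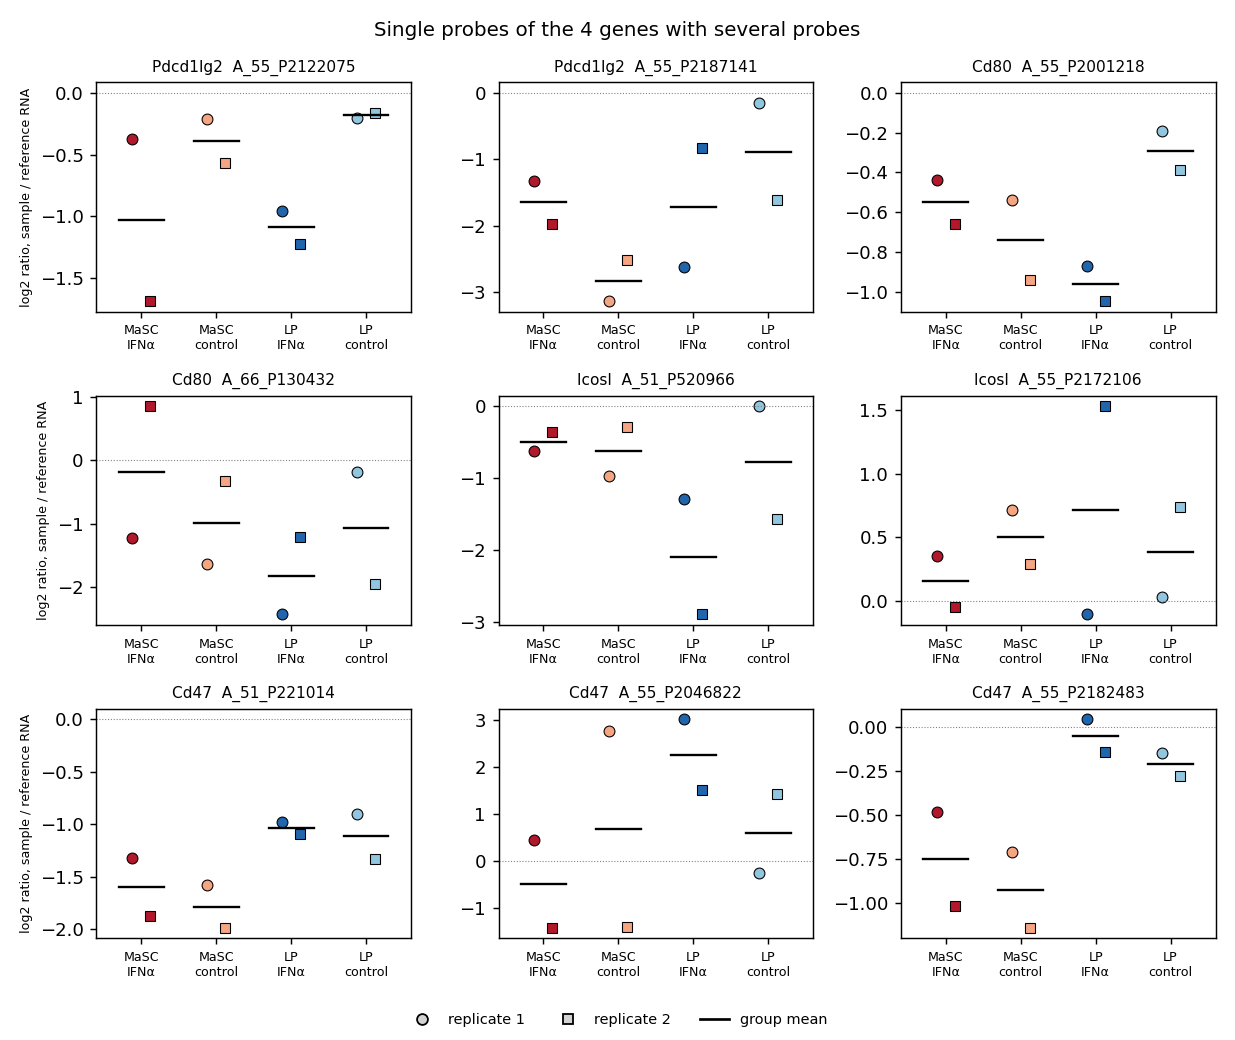
Log2 ratio to reference RNA (vertical axis, a scale of its own in each panel) of the 9 single probes of Pdcd1lg2, Cd80, Icosl and Cd47, by group. Circles are replicate 1, squares replicate 2 and bars group means. Of the Cd47 probes A_55_P2046822 spans -1.42 to 3.02, whereas A_55_P2182483 stays between -1.14 and 0.04.

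Counted over the ligands, 1 of 10 rose in MaSC, where 0.229% of all genes rose, and 1 of 10 in LP, where 0.330% did. The gene was Lgals9 each time, as it was in the average of both responses (1 of 10, against 0.587% of all genes). No ligand fell. Single probes gave the same count, with the Lgals9 probe alone among 15 passing in MaSC (0.174% of all probes), in LP (0.257%) and in the average (0.553%). Lgals9 and Cd274 have 1 probe each, so their probe and gene values are the same. The probe count is thus no separate measurement of Lgals9. Groups did not overlap for 4 of 10 ligands in MaSC (32.0% of all genes) and 6 of 10 in LP (36.5%), so with 2 arrays per group separation by itself was common. Over all 4 arrays with IFNα against all 4 controls, 2 of 10 were higher without overlap, Lgals9 and Cd274, where 1.48% of all genes were. The median log2 change of the 10 was 0.10 in MaSC and 0.38 in LP, against -0.05 and 0.00 over all genes.

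Whether the populations responded differently was tested as the IFNα change in MaSC minus that in LP. No ligand passed (0 of 10 by limma, as 0% of all genes did, and at an unadjusted p under 0.05 it was 0 of 10, against 4.27% of all genes). The difference was 0.36 for Lgals9 (95% interval -0.40 to 1.11) and 0.01 for Cd274 (-1.79 to 1.82). The interval for Cd274 spans more than either of its changes. Vtcn1 had the lowest p, at -2.20 (-4.72 to 0.32, unadjusted p = 0.077), and was -1.40 without LP control replicate 1. Cd80 at 1.20 and Pdcd1lg2 at 1.14 followed, with intervals that include 0. Without LP control replicate 1 they were 0.71 and 0.79. The Pdcd1lg2 probes differed by 2.02 (A_55_P2187141, -0.56 to 4.59) and 0.27 (A_55_P2122075, -1.24 to 1.78). Of the Cd80 probes, A_55_P2001218 differed by 0.86 (0.09 to 1.63) and A_66_P130432 by 1.54 (-1.81 to 4.90). None of these probes passed over all probes.

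Between the populations, Lgals9 was lower in MaSC than in LP. The difference averaged over both treatments was -0.85 ± 0.15 (MaSC minus LP, limma adjusted p = 0.047), and it made up the 1 of 10 ligands that was lower, where 1.34% of all genes were. Its 1 probe holds the same values and did not pass over all probes (adjusted p = 0.055). The call was narrow: it was lost without any 1 of the 8 arrays (adjusted p = 0.075 to 0.16) and under 5 other settings (0.053 to 0.090). No ligand passed within controls (0 of 10, against 0.601% of all genes called) or with IFNα (0 of 10, against 0.505%), and 2 of 10 had an unadjusted p under 0.05 in each, where 13.8% of all genes did in controls and 16.9% with IFNα. Groups did not overlap for 4 of 10 ligands in controls (46.3% of all genes) and 5 of 10 with IFNα (50.3%). Vtcn1 had the largest difference in controls, at 1.94 (95% interval 0.16 to 3.72, adjusted p = 0.33), which was 1.15 without LP control replicate 1. Cd86 stood at -1.16 in controls and -0.07 without that array. It passed at -2.25 (adjusted p = 0.032) when LP control replicate 2 was left out, which leaves LP control replicate 1 alone. Of the 3 Cd47 probes 1 separated the populations over both treatments, A_55_P2182483. It read -0.48 and -1.02 in MaSC with IFNα and -0.71 and -1.14 in MaSC controls. The LP values were 0.04 and -0.15 with IFNα and -0.15 and -0.28 in controls. All MaSC values lay below all LP values, by -0.70 ± 0.19 on average, and this did not pass over all probes (adjusted p = 0.10). Among all genes, with their probes averaged, 10.4% lay lower in MaSC without overlap. That share was not computed over single probes. Over both treatments the other Cd47 probes overlapped between the populations, with A_51_P221014 at -0.62 (adjusted p = 0.15) and A_55_P2046822 at -1.33 (adjusted p = 0.51). Within each treatment A_51_P221014 was also lower in MaSC without overlap, and A_55_P2046822 was so with IFNα only. Among all genes 22.7% were lower without overlap in controls and 28.6% with IFNα, again by gene and not by single probe.

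**Figure D5:**
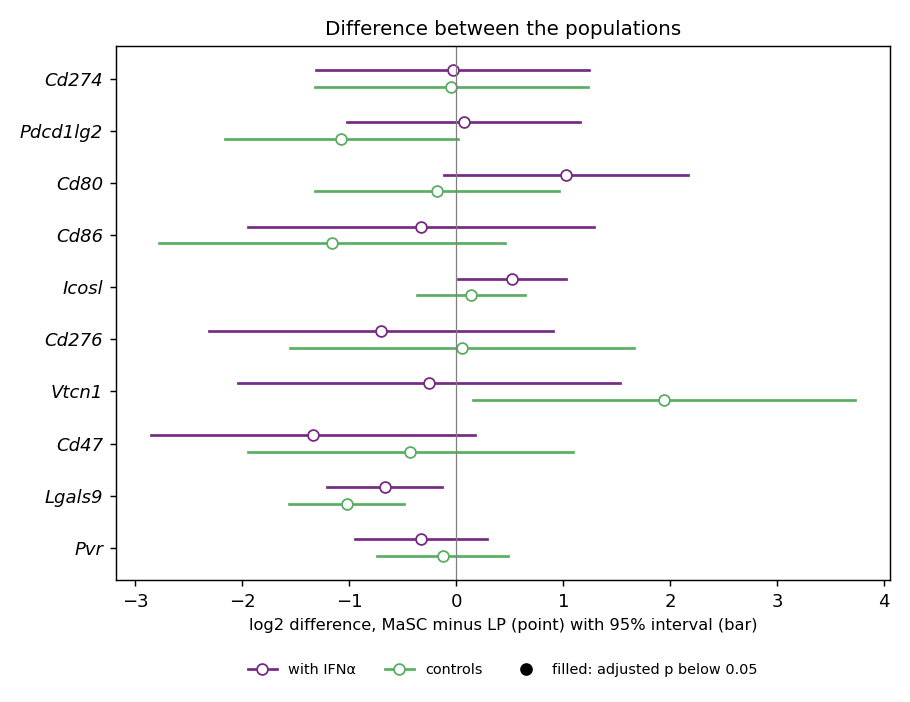
Log2 difference between the populations (horizontal axis, MaSC minus LP) of the 10 ligand genes with IFNα (purple, upper of each pair) and in controls (green). Points are limma estimates and bars 95% intervals. No point is filled, as none passed in either treatment, and Lgals9 lies at -0.67 and -1.02.

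Markers of other cells differed between these populations too. Averaged over treatments, 4 of 6 endothelial markers (Cdh5, Emcn, Tek and Kdr), 3 of 6 fibroblast markers (Pdgfrb, Dcn and Lum) and 3 of 5 adipocyte markers (Fabp4, Adipoq and Lpl) were higher in MaSC, as 2.34% of all genes were. The mean log2 ratio of the endothelial list was 3.26 and 2.88 in MaSC with IFNα, against 2.81 and 2.73 in MaSC controls. The LP arrays read 0.48 and 0.97 with IFNα, against -0.15 and 0.06 in controls, so the LP treatments did not overlap in this mean. By gene, 3 of the 6 were higher with IFNα in LP without overlap and 1 was lower. Among all genes 36.5% did not overlap in LP, in either direction. By limma, 1 of the 6 endothelial genes rose with IFNα in LP and on average, where 0.330% and 0.587% of all genes did. This was Cdh5, a cadherin of endothelial junctions, at 3.59 ± 0.39 in LP (limma adjusted p = 0.038), and the other 5 did not pass. The part of these markers in the ligand results, by population or by IFNα, was not tested. Leukocytes carry several of these ligands, and 0 of 25 leukocyte markers passed in any comparison by limma, with at most 2 at an unadjusted p under 0.05 in any of them, where 4.27% to 23.2% of all genes were. Their mean log2 ratio was -1.61 to -1.47 on the MaSC arrays, and in LP -1.70 and -1.58 with IFNα against -0.64 and -1.68 in controls.

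Among 24 other measured checkpoint and costimulatory ligands, 1 rose in the average of both responses, where 0.587% of all genes did. None passed within a population by limma. At an unadjusted p under 0.05 there was 1 in MaSC, against 4.54% of all genes, and 3 in LP, against 7.42%. This was H2-T23, the gene of Qa-1, a class I molecule that engages the inhibitory receptor NKG2A. It was 2.06 and 1.57 in MaSC with IFNα against 0.05 and -0.62 in controls, and 2.68 and 2.61 in LP with IFNα against 0.20 and 0.40 in controls. Arrays with IFNα were clearly higher in both populations, by 2.22 ± 0.21 on average (adjusted p = 0.011). The list's median change was -0.06, against -0.02 over all genes. Lower in MaSC than in LP over both treatments was 1 of the 24 listed genes, as 1.34% of all genes were. This was Vsir, which encodes the inhibitory B7 family member VISTA, at -2.46 ± 0.37 (adjusted p = 0.031). It was -1.17 and -1.59 in MaSC with IFNα against 1.80 and 0.51 in LP with IFNα. In controls it was -1.38 and -2.41 in MaSC against 0.69 and 0.28 in LP.

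Of 19 measured genes of PD-L1 signalling and turnover, 3 rose in MaSC and on average (Stat2, Irf9 and Usp18, a brake on interferon receptor signalling) and 2 in LP (Stat2 and Usp18), and the other 16 did not pass on average. Among all genes 0.229% rose in MaSC, 0.330% in LP and 0.587% on average. Irf9, the DNA-binding partner of STAT2, rose by 1.95 in MaSC (adjusted p = 0.031) and stood at 1.40 in LP (adjusted p = 0.066). Nlrc5, an activator of class I genes, stood at 1.91 on average and Irf1 at 0.44 without passing. Jak2 and Plgrkt, genes near Cd274 on the chromosome, stood at -0.12 and -0.15 on average, and Cmtm6 and Cmtm4, whose proteins protect PD-L1 from degradation, at 0.05 and 0.01. The receptor chains Ifnar1 and Ifnar2 stood at -0.12 and 0.12.

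By pattern over the 8 arrays, the genes most like Lgals9 were Adar, an RNA-editing enzyme (Pearson r = 0.991), Trim12c (0.991) and Zbp1, a sensor of Z-form nucleic acid (0.988). Those most like Cd274 were Phldb3 (0.990), the immunoproteasome subunit gene Psmb10 (0.982) and the guanylate-binding protein gene Gbp7 (0.970). Cd274 and Lgals9 themselves correlated at r = 0.88. These are descriptions over 8 arrays that share the treatment split, and the highest of 21794 correlations is high by selection.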

How the data were processed

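RNA of 8 mouse mammary cell samples was measured on two-colour Agilent arrays, 1 array per sample. Per the labels' protocols, sample RNA carried Cy5 and universal mouse reference RNA, pooled from 11 cell lines, carried Cy3. Per the submitters' processing notes, scans were read by Agilent Feature Extraction 11.0. The deposited values were used as log2 ratios of sample to reference. The base was taken as 2 because values reach -9.32, the direction was taken from the dyes, and normalization and centring by the authors are not given in the sources used here. Array medians ran from -0.14 to 0.15. The number of arrays limits the precision, and probe intensities were not used here.

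Named probes with a value on all arrays (30398 of 30626) were averaged by symbol into 21794 genes. Limma 3.58.1 in R 4.3.3 fitted 1 mean per group over all arrays, with 4 residual degrees of freedom and 1.98 prior ones. P-values, two-sided, carry the Benjamini-Hochberg adjustment over all genes or, for single probes, over all probes. A gene passed below 0.05. The procedure was tested on simulated data. Alternatives were 3 array scalings, another probe summary, a filter on low genes, other empirical Bayes options, fits of the compared groups alone, a replicate block and leaving out each array.

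The 10 genes and all lists were chosen with earlier results of these data known. Every member was named. Listed genes were named where they passed (up to 6 per list and comparison), or else by the lowest p, and neighbours in pattern were the 3 highest Pearson correlations for Cd274 and for each member that passed with IFNα. Nlrc5, Irf1, Jak2, Plgrkt, Cmtm4, Cmtm6, Ifnar1 and Ifnar2 were named after their values were seen. Replicate numbers were not taken to pair samples, since no label says that they do and only 2 numbers exist. Deviations of same-numbered samples correlated over genes at 0.31 between the MaSC groups and 0.04 between the LP groups. Promoter sequences come from RefSeq on GRCm38.p6.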

Additional observations from a re-analysis of the deposited data

How the results depend on the processing

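The count of ligands that passed was set against each alternative. In the average of both IFNα responses it was 1 without any 1 array, and 2 with quantile normalization and with every array at the same standard deviation, where Cd274 joined Lgals9; single probes gave 2 there as well. In MaSC and in LP the count ran from 0 to 1 over the 8 arrays left out in turn, for genes and for probes, and was 0 when only the groups compared were fitted. With replicate number as a block it was 0 in MaSC for genes, and 0 for probes in MaSC and in LP. With every array centred on its median it was 0 for probes in LP. For the population difference averaged over treatments it was 0 with quantile normalization, with equal standard deviations, with median centring, with the probe of highest mean and with trend and robust options, and 0 to 1 with arrays left out. In controls the count was 0 to 1 with arrays left out. The 1 was Cd86 in both, without LP control replicate 2. The difference of responses and the comparison with IFNα kept a count of 0 throughout. No call of Lgals9 changed sign in any alternative. The filter on low genes removed Cd274, Pdcd1lg2, Cd80 and Cd86 from the test. The counts of all genes moved by over 1.5 times in some alternatives: fits of only the groups compared called 0 genes in MaSC and in LP, against 51 and 72, and the block called 12 and 27. Median centring gave 33 in MaSC. With arrays left out the counts ran from 0 to 57 in MaSC, from 0 to 422 in LP (422 without LP control replicate 2), and from 40 to 201 for the average, against 129. Between populations, controls gave 131 genes, against 218 with quantile normalization, 198 with equal standard deviations, 68 with trend and robust options, 0 with only those groups and 0 to 368 with arrays left out. With IFNα the count was 110, against 170 with the filter, 54 with the block, 0 with only those groups and 0 to 165 with arrays left out. Averaged over treatments it was 804, against 876 with quantile normalization, 896 with equal standard deviations and 1107 with the block. It was 758 with median centring, 694 with trend and robust options, 687 with the probe of highest mean and 674 with the filter. Without any 1 array the count was lower than 804. Median centring moved the median of all genes to -0.13 in MaSC minus LP controls. Alternatives for single probes were added after the data were seen. With 2 arrays per group and a median standard error of 0.44 for the difference of responses, modest changes of single ligands were beyond reach, and how far each probe stood above background was not measured here.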

Other observations

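The receptors of these ligands, which T cells, natural killer cells and macrophages carry, were listed as 23 symbols, of which 22 were measured. None passed in any comparison by limma, and for IFNα those at an unadjusted p under 0.05 were 3 in MaSC, 3 in LP and 1 on average, where 4.54%, 7.42% and 6.54% of all genes were. The lowest p in MaSC belonged to Cd160, a receptor of HVEM, at 1.84 (adjusted p = 0.66), and Lag3, an inhibitory receptor, at 2.29 (adjusted p = 0.77). Lag3 was 0.42 and 0.07 in MaSC with IFNα against -2.54 and -1.55 in MaSC controls, but -1.50 and -0.22 in LP with IFNα against -0.11 and -1.70 in LP controls. In LP the lowest p belonged to Cd244a at -0.67 (adjusted p = 0.43) and Cd28 at -1.27 (adjusted p = 0.65).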
